A study of Oryza sativa with 12 samples.

Results

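Among the messenger RNAs measured in rice leaves, 26 genes were lowest in leaves given VdAL and azoxystrobin together while each agent alone left them near the water level. They were chosen by measured values, from 21381 gene IDs that passed a filter on low counts out of 88438 in the files. A member had a mean of at least 5 CPM over the 12 libraries, all 3 libraries of the combined treatment below all 9 others, and a combined-treatment mean of at most 0.67 of the mean of those 9. Its azoxystrobin and VdAL means each lay in a window from 20% below to 25% above the water mean. CPM expresses a gene's read count per fixed number of reads assigned to genes, after scaling each library's total by edgeR's TMM method (trimmed mean of M-values). The choice allowed up to 150 members. Every value that follows for the 4 treatments was used by that choice, so the levels and differences of the members are a description and carry no test.

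The libraries were made from TU100, a hybrid rice of the indica type, when plants were 1 month old, in 4 groups of 3. The groups were VdAL+ azoxystrobin (the combination below), azoxystrobin, VdAL, and water. The sources used here give no doses, no time between treatment and sampling, and no statement that the libraries of a group came from separate plants. The growth description mentions several areas without tying them to treatments, so an area and a treatment cannot be told apart. The spread behind each SD and p-value is that among such libraries and could be technical.

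Azoxystrobin is a strobilurin fungicide. It binds the quinol-oxidising site of complex III in the mitochondrial respiratory chain, a complex that plants also have, and plant mitochondria hold an alternative oxidase that can pass electrons to oxygen ahead of complex III. The labels do not say what VdAL stands for. With both agents given alone and together, a gene can be asked whether its level under the combination departs from what either agent does by itself, and the members are the downward case of that question. In leaf RNA taken from whole tissue, fewer cells of a type and less RNA per cell cannot be told apart.

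The files give gene IDs without names. None of the 88438 IDs, 0 in all, matched a table of 39387 genes of the japonica assembly ASM3414082v1, so no function, position or sequence is given for any member, and the leaf identity of the libraries was not checked against marker genes. All 26 members have IDs of the series that starts with BGIOSGA, and 0 have IDs that start with EPlOING. That follows the make-up of the measured IDs, since BGIOSGA IDs made up 93.9% of those tested and 97.2% of those at 5 CPM or more. The nearest pair of members were 102 apart in ID number, so no 2 members carry neighbouring IDs.

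Reads assigned to genes ranged from 6444650 to 10144564 per library, with the lowest total in combination replicate 3. TMM factors ran from 0.926 to 1.05. They were 0.9875, 0.926 and 0.982 in the combination, 0.952 to 0.982 in water, and 0.994 to 1.05 under the single agents. The combination factors were thus all below the single-agent ones. Reads that aligned to more than 1 place made up 12.6% to 13.0% of the recorded reads in the combination libraries and 9.01% to 22.4% in the other 9, with the lowest share in water replicate 3 and the highest in VdAL replicate 1. The share of reads outside any gene was 46.3% to 47.5% in the combination and 42.2% to 49.6% in the others. For neither share did the combination libraries lie outside the range of the rest.

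The member genes together summed to 381, 338 and 358 CPM in the 3 combination libraries. In azoxystrobin they summed to 662, 617 and 550 CPM, in VdAL to 590, 638 and 699.8 CPM, and in water to 604, 694 and 570 CPM. The combination mean of 359 ± 21.4 CPM (SD, n = 3) was thus 0.574 of the mean of the other 9 libraries, while azoxystrobin stood at 0.975, VdAL at 1.03 and water at 0.996 of it. The 3 single-agent and control groups overlapped one another in these sums.

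**Figure D1:**
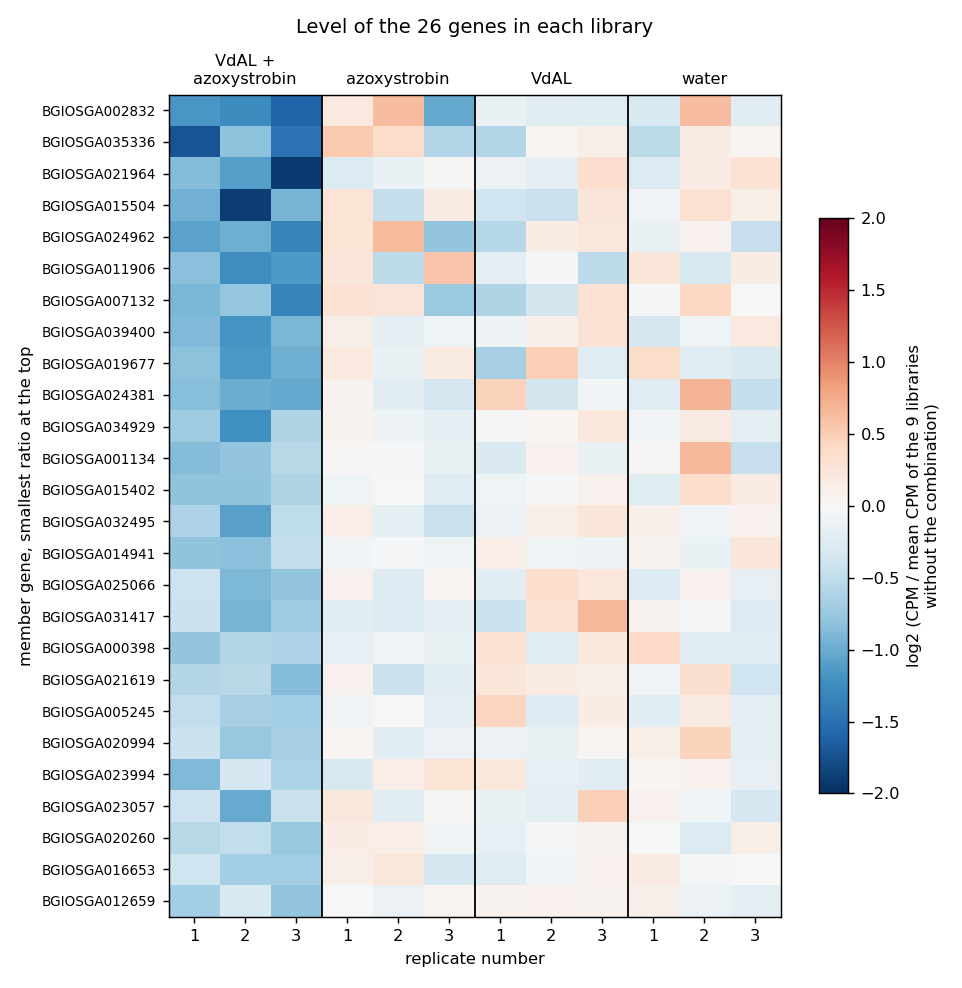
Level of each of the 26 members (rows, smallest ratio at the top) in each of the 12 libraries (columns, grouped by treatment, numbered by replicate), as log2 of CPM over the gene's mean in the 9 libraries without the combination. The 3 combination columns are blue in every row, as the choice of the genes requires, and the other 9 columns show gene-by-gene scatter around 0, with azoxystrobin replicate 3 blue in several of the upper rows.

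The depth of the decrease differed among members. The ratio of the combination mean to the mean of the other 9 libraries ran from 0.398 to 0.669, with a median of 0.606. The choice used these same libraries, which favours low ratios. In 6 members the ratio was under 0.5, in 5 it lay between 0.5 and 0.6, and in 15 it was over 0.6. Most members therefore sat close to the limit of 0.67. They were also modestly expressed: the mean level had a median of 15.1 CPM and ran from 5.20 to 117 CPM, against a median of 25.3 CPM for all IDs at 5 CPM or more. Of the 26, 7 had means under 10 CPM, 8 between 10 and 20, 11 over 20, and 1 over 100. A combination library held between 11 and 593 reads of a member, and 12 members had fewer than 50 reads in at least 1 combination library.

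BGIOSGA002832 had the smallest ratio, 0.398. Its level was 10.7, 10.1 and 7.92 CPM in the combination, 27.6, 37.0 and 11.8 CPM in azoxystrobin, 21.8, 20.6 and 20.2 CPM in VdAL, and 19.4, 37.0 and 20.6 CPM in water. Azoxystrobin replicate 3 was close to the highest combination library, and the other libraries lay at 19.4 CPM or more. In edgeR's fit to all 12 libraries the combination differed from azoxystrobin by -1.40 on the log2 scale (SE 0.33), from VdAL by -1.12 (SE 0.33) and from water by -1.43 (SE 0.33).

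BGIOSGA035336 had the next smallest ratio, 0.410. Combination libraries held 5.81, 10.98 and 6.97 CPM of it, azoxystrobin libraries 27.6, 24.9 and 12.9 CPM, VdAL libraries 12.9, 19.8 and 21.0 CPM, and water libraries 13.3, 21.4 and 19.9 CPM. Azoxystrobin replicate 3, VdAL replicate 1 and water replicate 1 were low in their groups and near the highest combination library. The average spread within a group was the widest of all members, with a coefficient of variation of 29.5%. The log2 difference of the combination was -1.46 from azoxystrobin (SE 0.31), -1.18 from VdAL (SE 0.31) and -1.20 from water (SE 0.31).

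The clearest separation belonged to BGIOSGA021964 and BGIOSGA039400. For BGIOSGA021964 the lowest of the other 9 libraries was 1.5 times the highest combination library. It stood at 5.27, 4.45 and 2.53 CPM in the combination, at 7.91, 8.72 and 9.75 CPM in azoxystrobin, at 8.82, 8.40 and 12.1 CPM in VdAL, and at 7.95, 10.8 and 11.7 CPM in water. These are low levels, from 39, 30 and 16 reads in the combination libraries. BGIOSGA039400 showed a 1.45-fold gap at higher counts, 118 to 160 reads in the combination. Its combination libraries gave 21.6, 17.5 and 21.1 CPM. Those of azoxystrobin gave 43.2, 34.7 and 37.6 CPM, those of VdAL 36.9, 42.7 and 48.6 CPM, and those of water 31.4, 37.5 and 45.4 CPM. The 3 groups without the combination overlapped throughout, and the combination held 0.505 of their mean. Its log2 difference was -0.94 from azoxystrobin (SE 0.17), -1.09 from VdAL (SE 0.17) and -0.92 from water (SE 0.17).

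The most abundant member was BGIOSGA034929, the member that carried 1516 reads in its richest library. It reached 80.1, 56.2 and 86.6 CPM in the combination, 139, 123 and 115 CPM in azoxystrobin, 129, 135 and 153 CPM in VdAL, and 127, 147 and 114 CPM in water. Combination replicate 2 was the low one of its group, and even the highest combination library stood below every other library by a factor of 1.32. The log2 differences were -0.76 from azoxystrobin, -0.91 from VdAL and -0.80 from water (SE 0.15 for each). BGIOSGA020994 came next in abundance, at 25.2 ± 2.96 CPM in the combination, 36.2 ± 3.14 CPM in azoxystrobin, 36.4 ± 2.58 CPM in VdAL and 42.8 ± 9.31 CPM in water (SD, n = 3 each). Both of its single-agent means were 0.85 of the water mean, near the lower edge of the window. That mean leaned on water replicate 2, at 52.5 CPM against 41.9 and 33.9 CPM in replicates 1 and 3. The log2 difference from water was -0.25 in azoxystrobin and -0.24 in VdAL (SE 0.16 each), and neither was called.

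**Figure D2:**
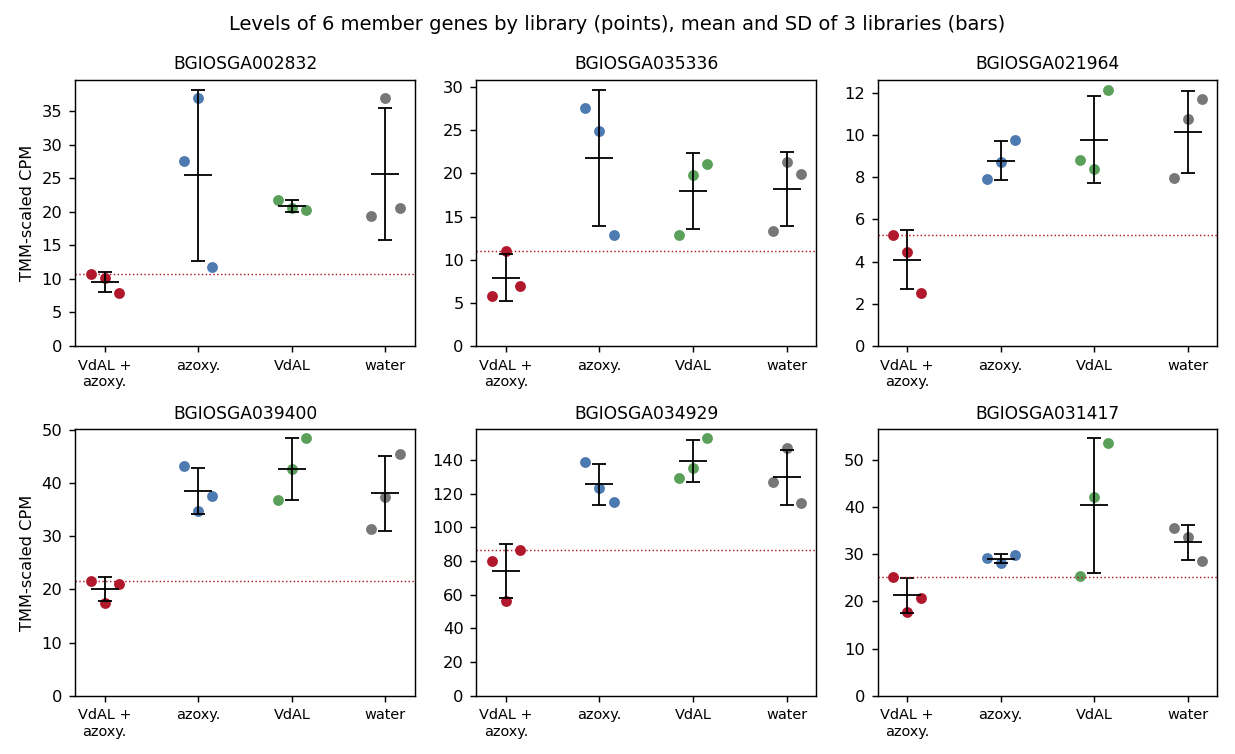
TMM-scaled CPM of 6 members in each library (points; from left, combination, azoxystrobin, VdAL, water), with the mean and SD of 3 libraries as black bars and a dotted line at the highest combination library. BGIOSGA021964 and BGIOSGA039400 leave a clear gap above the line, while in BGIOSGA031417 a VdAL library lies on it and in BGIOSGA002832 azoxystrobin replicate 3 lies just above it.

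At the other end, separation was thin. In 9 of the 26 members the lowest of the other 9 libraries was less than 1.1 times the highest combination library. The median of that multiple was 1.15, and it was 1.3 or more in 5 members. BGIOSGA031417 had the narrowest separation, with 25.3, 17.8 and 20.7 CPM in the combination and 25.3, 42.1 and 53.7 CPM in VdAL, so that its highest combination and lowest VdAL library differed by a factor of 1.002. Its azoxystrobin libraries held 29.3, 28.1 and 29.9 CPM and its water libraries 35.6, 33.6 and 28.5 CPM. BGIOSGA023994 was next, with a multiple of 1.01. It stood at 6.49, 9.49 and 7.76 CPM in the combination, 9.61, 13.2 and 14.6 CPM in azoxystrobin, 13.9, 10.8 and 10.22 CPM in VdAL, and 12.3, 12.8 and 10.7 CPM in water.

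The steadiest members were BGIOSGA012659 and BGIOSGA014941, with mean coefficients of variation within a group of 8.99% and 9.23%, against a median of 16.2% over the members and 14.2% over all IDs at 5 CPM or more. BGIOSGA012659 stood at 23.4, 30.4 and 21.7 CPM in the combination, 38.0, 34.9 and 38.9 CPM in azoxystrobin, 39.5, 40.0 and 39.3 CPM in VdAL, and 40.5, 34.6 and 32.9 CPM in water. BGIOSGA014941 averaged 7.96 ± 1.06 CPM in the combination, 12.5 ± 0.189 CPM in azoxystrobin, 12.9 ± 1.20 CPM in VdAL and 13.6 ± 1.73 CPM in water (SD, n = 3 each). For both, the water libraries spanned the range of the single-agent ones. BGIOSGA012659 was also the member nearest the limit on the ratio, at 0.669, followed by BGIOSGA016653 at 0.666, where the combination averaged 6.998 CPM, azoxystrobin 10.7, VdAL 10.1 and water 10.8. Just outside the limit were BGIOSGA016977 and BGIOSGA016761, both at 0.671. BGIOSGA016761 had 31.6, 33.2 and 32.8 CPM in the combination against 39.8 CPM in the lowest of the other 9 libraries.

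Set against each other treatment in turn, the combination was lower in all 26 members, which the choice of the genes fixes. The median log2 difference was -0.67 from azoxystrobin, -0.82 from VdAL and -0.79 from water, where the medians over all tested IDs were 0.0020, -0.0025 and -0.011. All of these comparisons share the combination libraries. Ranges over the members were -1.46 to -0.45 against azoxystrobin, -1.25 to -0.52 against VdAL and -1.43 to -0.50 against water. The interaction is the log2 effect of adding VdAL to azoxystrobin less the log2 effect of VdAL alone. It was below 0 in all 26, a sign that the choice of the genes fixes too. Its median was -0.73 and its range -1.43 to -0.28, where the median over all tested IDs was -0.0013.

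**Figure D3:**
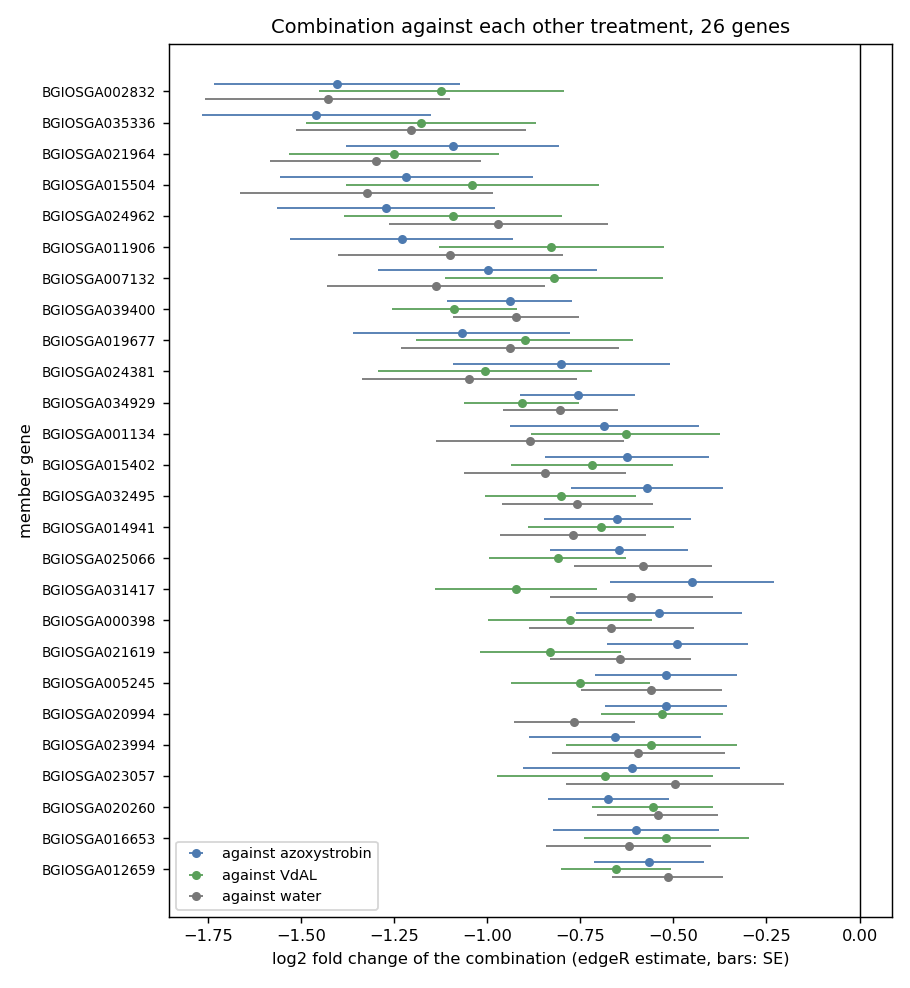
Log2 fold change of the combination against azoxystrobin (blue), VdAL (green) and water (grey) for each member, with the standard error (SE) from edgeR's fit as bars. All points lie between -1.46 and -0.45.

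Few members were called in edgeR's quasi-likelihood test, in which a gene is called where its Benjamini-Hochberg adjusted p over all tested IDs is under 0.05. Against azoxystrobin 0 members were called lower, with 0% of the tested IDs called lower. At an unadjusted p under 0.05, 2574 IDs differed in either direction in that comparison, and DESeq2 called 60 IDs lower, or 0.325% of those to which it gave an adjusted p, 9 of them members. Against VdAL 1 member was called lower, BGIOSGA039400, where 0.00935% of the tested IDs were. Against water there were 5, BGIOSGA002832, BGIOSGA021964, BGIOSGA039400, BGIOSGA034929 and BGIOSGA020994, where 1.22% of the tested IDs were called lower. The interaction was called negative in 2, BGIOSGA039400 and BGIOSGA034929, where 0.44% of the tested IDs were. Since the choice used these same contrasts, nothing is read from the members' share. All 3 combination libraries lay below all 9 others in 1.38% of the tested IDs, the pool from which the members come. DESeq2 called 12 members lower than VdAL, where it called 0.526% of the IDs to which it gave an adjusted p. It called 16 members lower than water, against 2.56% of such IDs, and 6 with a negative interaction, against 1.66%.

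These small counts moved with single libraries, as did the calls over all tested IDs. With 1 library left out, the share of tested IDs called lower was 0% to 0.0594% against azoxystrobin, 0% to 0.187% against VdAL and 0.328% to 2% against water, and that with a negative interaction was 0.0455% to 1.27%. The count of members called lower than in azoxystrobin was 2 without water replicate 2 (0.0365% of tested IDs) and 3 without azoxystrobin replicate 3 (0.0594%). Against water, leaving out water replicate 2 gave 1, water replicate 3 gave 9, azoxystrobin replicate 3 gave 8, combination replicate 1 gave 3 and combination replicate 3 gave 2. Against VdAL it was 0 without azoxystrobin replicate 3, VdAL replicate 2, VdAL replicate 3, combination replicate 2 or combination replicate 3 (0% for each). It was also 0 without combination replicate 1 (0.0228%). It was 4 without water replicate 2 (0.187%) or VdAL replicate 1 (0.0912%), and 3 without water replicate 3 (0.114%). The interaction count was 0 without VdAL replicate 3 (0.0638%) or combination replicate 2 (0.0455%). It was 1 without water replicate 1 (0.341%), water replicate 3 (0.146%), azoxystrobin replicate 1 (0.119%), VdAL replicate 2 (0.137%) or combination replicate 1 (0.251%). It was 8 without water replicate 2 (1.05%), 6 without VdAL replicate 1 (1.27%) and 4 without azoxystrobin replicate 3 (0.173%).

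By their choice the members' single-agent means stayed inside the window around water, and some lay near its edges. The azoxystrobin mean ran from 0.846 to 1.24 times the water mean, with a median of 0.973, and the VdAL mean from 0.804 to 1.24 times, with a median of 0.983. Azoxystrobin was above water in 10 members and VdAL in 12. Both were above in 6 and both below in 10. VdAL was above azoxystrobin in 15. In azoxystrobin against water edgeR's test called 0 members, where it called 2.66% of the tested IDs in either direction, and DESeq2 called 0, where it called 5.36% of the IDs with an adjusted p. In VdAL against water both called 0 members, where edgeR called 3.55% and DESeq2 6.38%. In VdAL against azoxystrobin both called 0 members, where edgeR called 0% and DESeq2 0.0327%. At an unadjusted p under 0.05 in edgeR's test there were 0, 0 and 1 members in these comparisons, where 16.8%, 16.1% and 3.36% of the tested IDs passed. The window around water favours such low counts, and nothing is read from them.

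The window around water removed most genes that met the other conditions. Of the 15558 IDs at 5 CPM or more, 242 had all 3 combination libraries below the other 9, and 85 of these also had a ratio of at most 0.67. The window then kept 26 and set aside 59. In 46 of the 59 at least 1 single-agent mean was under the window, with both below it in 23, and in 15 at least 1 was above it, with both above in 2. Another 148 IDs met the level, separation and window but had a ratio above 0.67, 71 met the level, ratio and window but overlapped the other libraries, and 20 met all conditions but the level.

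**Figure D4:**
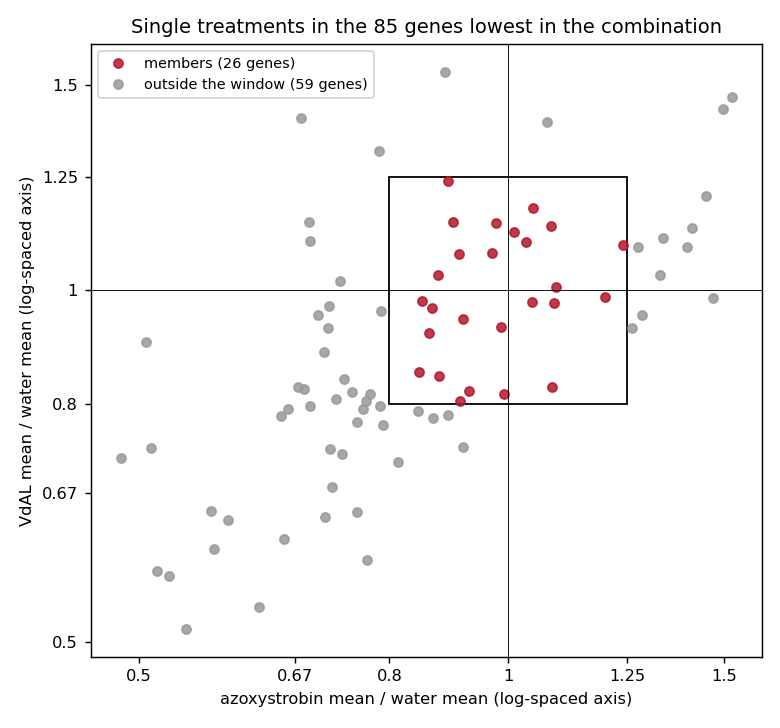
Azoxystrobin mean over water mean (x) and VdAL mean over water mean (y) for the 85 genes with all 3 combination libraries lowest and a ratio of at most 0.67. The square is the window from 20% below to 25% above water, which holds the 26 members (red), and 46 of the 59 genes outside it (grey) lie to its left, below it, or both.

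Turned to the other treatments, the same conditions picked 7 genes lowest in azoxystrobin only, 20 lowest in VdAL only and 73 lowest in water only, where for water the single-agent means were set against the combination mean. In the upward direction, with a ratio of at least the inverse of 0.67, they picked 47 genes for the combination, 6 for azoxystrobin, 9 for VdAL and 136 for water. The 26 genes lowest in the combination were more than for azoxystrobin or VdAL and fewer than for water. These counts carry no test.

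The 12 libraries did not play equal parts. Of the 3 combination libraries, replicate 1 was the lowest in 5 members, replicate 2 in 11 and replicate 3 in 10, and replicate 1 was the highest in 12. Among the other 9, the library closest to the combination was azoxystrobin replicate 3 in 6 members and water replicate 3 in 5. By treatment the lowest of the 9 was an azoxystrobin library in 11 members, a VdAL library in 5 and a water library in 10. In azoxystrobin replicate 3 the members' average deviation from their group mean was -0.126 on the log2 scale. In VdAL replicate 1 it was -0.106 and in water replicate 3 it was -0.0981. Over all IDs at 5 CPM or more those averages were -0.00968, 0.0149 and 0.00743. Other libraries lay about as far above their group means: 0.128 in water replicate 2, 0.122 in azoxystrobin replicate 1 and 0.119 in VdAL replicate 3.

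Leaving out a library shows how much of the list rests on it. Without combination replicate 1 the same conditions chose 107 genes, 24 of them members. Without replicate 2 they chose 55 and without replicate 3 they chose 54, with 21 members in each. Leaving out azoxystrobin replicate 3 gave 50 genes (21 members) and leaving out water replicate 3 gave 44 (20 members). Leaving out each of the other 7 libraries gave 24 to 38 genes, of which 14 to 23 were members.

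The library left out had no part in the choice, but the 9 libraries without the combination did. Genes were kept for high values in those 9, which by itself favours a lower place for the library left out, so the shares over all IDs are not what would be seen with no difference. Of the 107 genes chosen without combination replicate 1, that library lay below all 9 others in 36, or 33.6%, where 6.63% of all IDs at 5 CPM or more did so. For replicate 2 it was 32 of 55 genes, or 58.2%, against 13.3% of all such IDs. For replicate 3 it was 29 of 54, or 53.7%, against 11.9%. The genes chosen are not independent of one another, and these shares are a description with no test.

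The size of the decrease shrank in the library left out. Its median ratio to the other 9 libraries was 0.824 for replicate 1, 0.713 for replicate 2 and 0.708 for replicate 3, where the combination libraries that were used gave medians of 0.612, 0.607 and 0.602. Over all IDs at 5 CPM or more the medians were 0.988, 0.986 and 0.992. The library left out was below the mean of the other 9 in 92 of 107, 54 of 55 and 48 of 54 genes, and at or under the limit of 0.67 in 21, 22 and 23. These ratios are taken against the same 9 libraries that took part in the choice, which favours values under 1. The ratios given for the 26 members come from libraries that all took part in their choice.

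**Figure D5:**
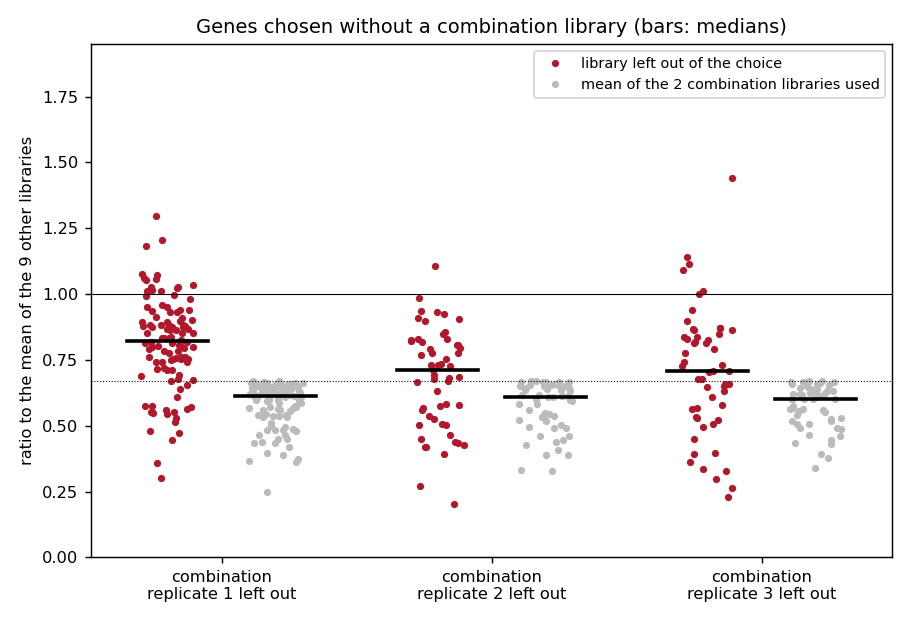
Ratio to the mean of the 9 libraries without the combination, for the 107, 55 and 54 genes chosen without combination replicate 1, 2 or 3: the library left out (red) beside the mean of the other 2 combination libraries (grey), with medians as black bars. The red medians of 0.824, 0.713 and 0.708 lie above the grey ones of 0.612, 0.607 and 0.602 and below 1, and the dotted line is the limit of 0.67.

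Correlations between members within treatments were low on average. Each library's deviation from its group mean was taken for every gene (log2 CPM, 12 libraries in 4 groups), and the mean correlation over the 325 pairs of members was 0.0794, where it was 0.00107 over all pairs of IDs at 5 CPM or more. Correlations of at least 0.7 were found in 17 pairs, or 5.23%, against 2.62% of all pairs. These are correlations over 12 shared libraries and come from few degrees of freedom. The choice of the members used the same 12 libraries, and the other IDs were not chosen this way. Nothing is therefore read from the difference between members and all pairs. BGIOSGA007132 and BGIOSGA024962 had the highest, 0.875, and each had 4 such partners; they were singled out after their values were seen. BGIOSGA024962 held 14.6, 15.4 and 12.04 CPM in the combination, 37.0, 47.5 and 17.6 CPM in azoxystrobin, 20.6, 33.9 and 35.5 CPM in VdAL, and 27.9, 32.2 and 22.2 CPM in water. BGIOSGA007132 held 8.51, 9.34 and 6.34 CPM in the combination, 19.7, 19.3 and 9.63 CPM in azoxystrobin, 10.6, 12.5 and 19.7 CPM in VdAL, and 15.8, 21.4 and 16.1 CPM in water. In both, as in BGIOSGA002832 and BGIOSGA035336, azoxystrobin replicate 3 was the low library of its group.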

How the data were processed

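RNA sequencing of 12 leaf libraries was used, grouped by the treatment in the labels. The authors deposited a raw read count per gene ID and library; the submitters' processing notes name TopHat2 2.1.0, HTSeq 0.6.1 and edgeR 3.16.3 and the pig build Sscrofa10.2, which the IDs do not bear out, so no coordinates are given. No source used here gives the counting mode or strand setting, so a gene and its antisense partner cannot be separated. Reads in the closing rows of each file were left out. These were 42.2% to 49.6% outside any gene, 9.01% to 22.4% not aligned uniquely and 0.646% to 0.834% ambiguous.

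Counts were filtered with filterByExpr (minimum count 10) and scaled by TMM in edgeR 4.0.16 (R 4.3.3). A group-means quasi-likelihood fit to all 12 libraries had 8 residual degrees of freedom. P-values were two-sided and adjusted over 21381 IDs. SE is the log2 fold change divided by the square root of F. For deviations from group means, a prior count of 2 was added before taking log2 CPM. Scripts were first run on simulated counts. The check that had to pass there covered edgeR's calls of the combination against water, not the choice of members. Replicates of a group differed by a chi-square of at least 4.16 per degree of freedom, so none were duplicates.

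The members, and the alternatives tried, were chosen with earlier results of these data known. Alternatives were RLE and upper-quartile factors, library sizes alone, no filter, DESeq2 1.42.0, only the groups compared, a replicate block, other limits, and each library left out. Named IDs were the 2 members each of smallest ratio, highest level, widest and narrowest separation, smallest spread and nearest inside the limit, and the 2 IDs just outside. The pair of highest correlation was added.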

Additional observations from a re-analysis of the deposited data

Results flagged for a closer look

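The interaction was called negative by edgeR's quasi-likelihood test, adjusted over all tested IDs, in 2 of the 26 members, where it was called negative in 0.44% of the tested IDs and positive in 3.36%. The count of members was 1 with a replicate block (0.206% of tested IDs called negative). It was 0 without VdAL replicate 3 (0.0638%) or combination replicate 2 (0.0455%). For BGIOSGA039400 the interaction was -1.11 on the log2 scale (SE 0.23). The combination averaged 20.1 ± 2.24 CPM, with 38.5 ± 4.31 CPM in azoxystrobin, 42.7 ± 5.82 CPM in VdAL and 38.1 ± 7.06 CPM in water (SD, n = 3 each). For BGIOSGA034929 it was -0.86 (SE 0.22), where the combination averaged 74.3 ± 16.02 CPM, with 126 ± 12.1 CPM in azoxystrobin, 139 ± 12.4 CPM in VdAL and 129.7 ± 16.6 CPM in water (SD, n = 3 each). Both genes were chosen for a low combination level with each agent alone near water, which is the interaction itself, so the calls restate the choice and nothing is concluded from them. No cause was tested.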

How the results depend on the processing

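The number of genes chosen was 31 with RLE factors, 30 with upper-quartile factors and 28 without the filter, but 62 with library sizes alone, 22 of them members; that scaling moved the median log2 ratio of all tested IDs to -0.080 from -0.011 and the median ratio of the members to 0.579. It was 46 with a floor of 1 CPM, 6 with a ratio of at most 0.5, 124 with at most 0.8, 8 with a window from 10% below to 11% above water and 67 with one of 0.67 to 1.5 times water. Leaving out 1 library gave 24 to 107 genes, and median ratios of the 26 members of 0.564 to 0.612.

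Members called lower than water were 16 without the filter (1.91% of tested IDs), 16 with DESeq2 (2.56%), 3 in a fit of only the groups compared (0.671%) and 1 to 9 with a library left out (0.328% to 2%). Against azoxystrobin they were 12 (0.372%), 9 (0.325%), 3 (0.0689%) and 0 to 3 (0% to 0.0594%), and against VdAL 15 (0.569%), 12 (0.526%), 10 (0.429%) and 0 to 4 (0% to 0.187%). A negative interaction was called in 6 without the filter (0.75%), 6 with DESeq2 (1.66%) and 0 to 8 with a library left out (0.0455% to 1.27%). Library sizes alone gave 2 against VdAL (0.0889%) and 7 for the interaction (2.23%). The cause was not tested. No pairing by replicate number was seen, though 3 libraries a group cannot exclude it. Deviations of same-numbered libraries correlated at -0.205 to 0.104, and 3 of 12 libraries correlated best with their own number. With a replicate block 0 members were called against VdAL (0%) and 1 for the interaction (0.206%). Shares for the combination library left out were 33.6%, 58.2% and 53.7%. The 208 recomputed ratios of named IDs ran from 0.331 to 0.719, and 20 of the 176 of named members, in 5 genes, were above the limit of 0.67. Members with few reads are limited by depth.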
